A study of Mus musculus with 9 samples.

Results

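Embryonic globins and the transcription factors that lead to primitive red blood cells were followed through embryoid body formation in wild-type and Hnrnpll-knockout mouse cells. The set was named by gene symbol and holds 10 of the 49326 genes in the count tables: the globins Hbb-bh1, Hbb-y and Hba-x, and the factors Etv2, Tal1, Lmo2, Gata2, Runx1, Gata1 and Klf1. PolyA+ RNA was sequenced from embryonic stem cells (day 0) and from the embryoid bodies they formed in hanging drops (day 4 and day 8), and the series asks how loss of Hnrnpll, an hnRNP that binds RNA, alters that course. The Hnrnpll-/- groups held 2 libraries at day 0, 2 at day 4 and 2 at day 8, 1 from line G6 and 1 from line H8 each time, and the wild-type groups held 1 library at each day. Before aggregation all cells grew with fetal bovine serum and with leukemia inhibitory factor in the medium, and the labels name no cytokine for blood formation. With a single wild-type line, genotype and line cannot be told apart, and p-values measure the spread between the 2 knockout lines, which the single wild-type library of each day is assumed to share.

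The first red cells of the mouse embryo arise in the yolk sac from mesoderm that also gives rise to vessels. Etv2, an ETS-family factor, starts this haemato-endothelial programme in mesoderm that carries the VEGF receptor Kdr; Tal1 (also called Scl), its partner Lmo2 and Gata2 then act in the progenitors, and Gata1 and Klf1 activate the red cell genes, globins included. Primitive red cells make embryonic haemoglobin from the beta-like chains of Hbb-bh1 and Hbb-y and the alpha-like chain of Hba-x, whereas adult red cells use Hbb-bs, Hbb-bt, Hba-a1 and Hba-a2. Runx1 is required in the mouse for the later, definitive blood lineages.

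The beta-like embryonic genes lie together on chromosome 7 in mm10, Hbb-y at chr7:103851749-103853216 and Hbb-bh1 at chr7:103841637-103843164, both on the minus strand, and Hba-x heads the alpha cluster at chr11:32276400-32278116 on the plus strand. Globin promoters are known for their CACCC box, their CCAAT box and their TATA box, and erythroid promoters for GATA sites. The 250 bases upstream of the RefSeq starts (GRCm38.p6) are therefore shown for both embryonic globins that had a window. They are also shown for Tal1, the only member with a match to the 1 form of the GATA site searched. Capitals mark matches on either strand to the letters CCACCC for the CACCC box, CCAAT for the CCAAT box, ATAAAA for the TATA box and AGATAA for a GATA site, and each sequence reads 5′ to 3′ on the gene's own strand.
Hbb-y, chr7:103853208-103853457, minus strand: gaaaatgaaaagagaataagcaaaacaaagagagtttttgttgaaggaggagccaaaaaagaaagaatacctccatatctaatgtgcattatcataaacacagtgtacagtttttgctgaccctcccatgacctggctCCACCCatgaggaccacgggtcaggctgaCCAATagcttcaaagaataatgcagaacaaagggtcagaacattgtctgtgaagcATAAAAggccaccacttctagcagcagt
Hba-x, chr11:32276350-32276599, plus strand: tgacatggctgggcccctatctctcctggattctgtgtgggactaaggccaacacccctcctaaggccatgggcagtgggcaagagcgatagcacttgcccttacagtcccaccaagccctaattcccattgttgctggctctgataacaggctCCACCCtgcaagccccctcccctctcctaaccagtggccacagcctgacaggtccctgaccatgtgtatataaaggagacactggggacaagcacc
Tal1, chr4:115056176-115056425, plus strand: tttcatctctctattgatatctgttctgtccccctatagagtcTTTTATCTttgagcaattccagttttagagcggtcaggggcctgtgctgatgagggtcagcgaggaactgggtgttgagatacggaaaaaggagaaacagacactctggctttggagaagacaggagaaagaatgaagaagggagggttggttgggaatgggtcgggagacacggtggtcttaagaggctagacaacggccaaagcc
In Hbb-y the letters CCACCC lie at -112 to -107, CCAAT at -83 to -79 and ATAAAA at -28 to -23 from the start. Hba-x has CCACCC at -96 to -91. Other forms of the GATA and TATA letters were not searched, among them TGATAA and TATAAA, which the Hba-x sequence also holds. In Tal1 the reverse complement of AGATAA at -205 to -200 overlaps that of ATAAAA at -207 to -202. The 8 members with RefSeq windows had 11 of them, and of these windows 1 held the GATA letters, 3 the CACCC letters, 6 the CCAAT letters and 4 the TATA letters, against 9.97%, 28.14%, 33.81% and 16.85% of all 32536 promoter windows. These matches describe letters and not factor binding, which was not measured.

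Total counts ran from 54218051 to 184952442 per library, lowest in both knockout libraries of day 0. Low counts (up to 40) fell on multiples of 4 in 42.6% to 43.5% of cases in those libraries and in 30.5% to 33.2% in the other libraries, where whole numbers do so by chance in 25% of cases; what produces these steps was not tested. Hnrnpll itself was at 24.5 to 61.2 TPM (abundance scaled to gene length and library) in the 6 knockout libraries and at 77.1 to 112 TPM in the wild-type libraries; log2 differences of -0.996, -1.07 and -0.97 at day 0, 4 and 8 did not pass the test (edgeR adjusted p = 0.245, 0.376 and 0.212). The Y-linked gene Eif2s3y was at 0 to 2.15 TPM in the knockout libraries and at 82.2 to 134 TPM in wild type, so the lines also differ in sex-chromosome expression. All differences below are knockout minus wild type on the log2 scale from edgeR's quasi-likelihood test, adjusted by Benjamini-Hochberg over all 24794 genes tested, and 0.05 is the threshold.

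Embryonic globin RNA appeared in wild-type bodies at day 8 and was nearly missing from knockout bodies of the same day. Hbb-bh1, a beta-like chain of primitive red cells, was at 0 TPM in line G6 and 2.61 TPM in line H8 at day 8. Wild type had 462 TPM, and the counts were 0, 166 and 18449 in G6, H8 and wild type. Hba-x, the embryonic alpha-like chain, was at 0 TPM in G6 and 0.116 TPM in H8, against 38.9 TPM in wild type, from 0, 10 and 2031 counts. Hbb-y, the embryonic epsilon-like chain, had 0 counts in both knockout lines, against 971 counts and 23.5 TPM in wild type. For these genes both knockout libraries lay far below the wild-type one. At day 0 and day 4 the same genes had 0 counts in all libraries except 8 counts of Hba-x (0.128 TPM) in H8 at day 4.

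Because a count of 0 still allows up to 3 counts, folds against zero are lower bounds that cover counting error only. Over both knockout lines Hbb-y was at least 811-fold lower than in wild type at day 8, or at least 203-fold if counts come in steps of 4. In G6 alone Hbb-bh1 was at least 7016-fold lower and Hba-x at least 772-fold lower, or at least 1754-fold and 193-fold with such steps. In H8, where both were counted, TPM was 177-fold lower for Hbb-bh1 and 335-fold lower for Hba-x than in wild type. In bulk RNA, fewer cells of a type and less RNA per cell cannot be told apart.

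The edgeR difference of Hbb-bh1 at day 8 was -8.32 (SE 2.08), which did not pass over all genes (adjusted p = 0.0874). With the knockout line as a block in the fit it was -11.65 (SE 0.402) and passed (adjusted p = 0.0171). The only knockout counts of Hbb-bh1 are the 166 of H8 at day 8, which the line term can absorb. Neither that size nor its SE can therefore be read as a reliable estimate. Hbb-y and Hba-x reached the expression minimum in 1 library only and so were not tested with it. Without that minimum both were called lower by edgeR (adjusted p = 0.0207 for Hbb-y and 0.0322 for Hba-x), and Hbb-bh1 was not (adjusted p = 0.0808).

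**Figure D1:**
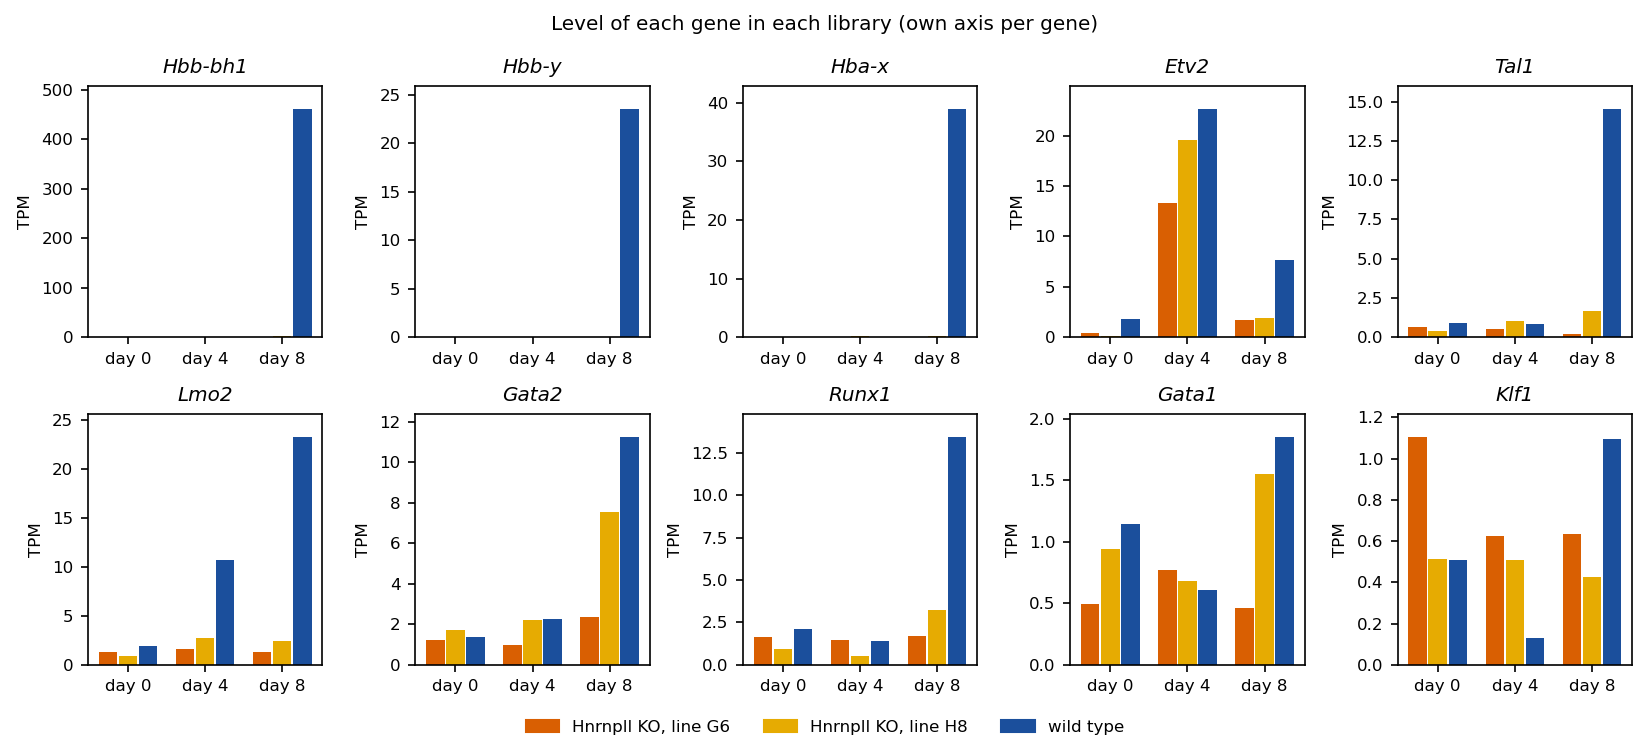
TPM of the 10 genes in each library, 1 bar per library and 1 panel per gene with its own axis from 0; day 0, 4 and 8 run left to right, with knockout lines G6 and H8 left of wild type. At day 8 all 10 genes are highest in wild type, whereas at day 4 Etv2 is at 13.3 and 19.6 TPM in the knockout lines, near the 22.7 TPM of wild type.

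The embryonic genes made up most globin RNA in wild-type bodies. Summed over 11 globin genes, day 8 bodies held 1.17 TPM in G6 and 4.25 TPM in H8, against 595 TPM in wild type. In wild type 88.0% of that sum came from the 3 embryonic genes and 77.6% from Hbb-bh1 alone. Beta-like RNA there exceeded alpha-like RNA 5.68-fold in TPM. Hbb-bh1 made up 91.3% of the beta-like RNA, and Hba-x made up 43.7% of the alpha-like RNA. The beta-like RNA includes that of Hbb-bh0, an annotated pseudogene of 129 bases, at 11.6 TPM from 98 counts in wild type. In H8 Hbb-bh1 was the only beta-like gene with counts, and it made up 61.4% of the globin sum. In G6 the sum came from 3 alpha-like genes, Hba-a2, Hbq1a and Hbq1b, at 0.360, 0.359 and 0.453 TPM.

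Adult globin genes were also low in knockout bodies. Of the 8 other globin genes listed, 4 were tested at day 8, and Hba-a1 and Hba-a2 passed as lower, with differences of -6.70 (SE 1.56, adjusted p = 0.0498) and -5.69 (SE 0.768, adjusted p = 0.0210). Hba-a1 was at 0 and 0.431 TPM in lines G6 and H8, and wild type had 25.1 TPM, and Hba-a2 was at 0.360 and 0.482 TPM, also against 25.1 TPM. The adult beta genes Hbb-bs and Hbb-bt had 0 counts in both knockout lines, against 7.01 and 1.67 TPM in wild type, at least 240-fold and at least 64.3-fold lower, or 60.1-fold and 16.1-fold if counts come in steps of 4. Hba-a1 and Hba-a2 share 99.77% of their coding bases, as do Hbb-bs and Hbb-bt, so how the counts divide within each pair is uncertain. Hbb-bh1 and Hbb-y share 76.35% and Hba-x and Hba-a1 share 64.92%. The theta-like gene Hbq1a was at 0.359 and 0.333 TPM in the knockout lines and at 0 in wild type, and Hbq1b was at 0.453 and 0.278 TPM against 0.477 TPM, neither past the test.

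**Figure D2:**
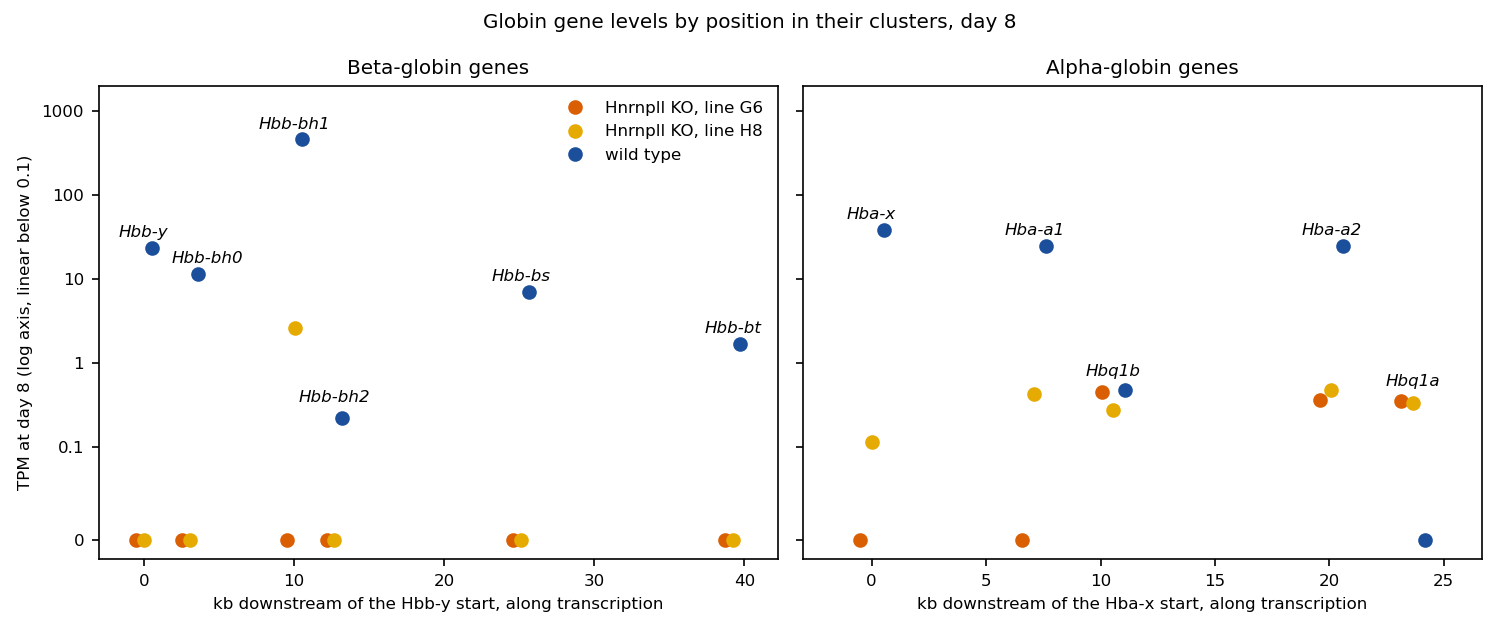
TPM of each globin gene at day 8 (vertical, log axis, linear below 0.1) by distance in kb from the start of Hbb-y or Hba-x along transcription; 1 point per library, knockout lines G6 and H8 drawn slightly left of wild type. In the beta cluster wild type is above 0 for all 6 genes, among them the pseudogene Hbb-bh0. The only knockout point above 0 there is H8 at Hbb-bh1, at 2.61 TPM. In the alpha cluster Hba-x, Hba-a1 and Hba-a2 are at 25.1 to 38.9 TPM in wild type and below 0.5 TPM in both knockout lines.

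Etv2, which starts the haemato-endothelial programme, was highest at day 4 in both genotypes. Its level was 0.459, 13.3 and 1.67 TPM in G6 at day 0, 4 and 8, at 0.112, 19.6 and 1.94 TPM in H8, and at 1.84, 22.7 and 7.65 TPM in wild type. Each line thus had its highest level at day 4, and at all 3 days both knockout lines lay below wild type. Within the knockout, day 4 exceeded day 0 by 5.87 on the log2 scale (SE 0.636, edgeR adjusted p = 0.0046), and Etv2 was the only 1 of 8 tested members to pass there, where 14.7% of all genes tested passed. TPM was 29.1-fold higher at day 4 than at day 0 in G6 and 175-fold higher in H8, from 14 and 4 counts at day 0, and 12.4-fold higher in wild type, a comparison between genotypes that was not tested. Against wild type the difference of Etv2 was -2.70 at day 0 (SE 0.656, adjusted p = 0.0736), -0.53 at day 4 (SE 0.584, adjusted p = 0.750) and -1.96 at day 8 (SE 0.578, adjusted p = 0.0841). At day 8 Etv2 was called lower by DESeq2 (adjusted p = 0.00339), limma-voom (0.0398) and log2(TPM + 1) (0.0416). It was not called with log2(TPM + 0.1), with no filter or with the line as a block. The day 8 difference was -1.97 when day 0 of G6 or day 0 of H8 was left out. When both were, an alternative chosen after seeing the data, it was -1.96 and passed in edgeR (adjusted p = 0.0300). That fit called 17.6% of all genes tested at day 8, against 9.87% in the main fit. Etv2 lies at chr7:30633616-30635852 and overlaps no other annotated gene.

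Lmo2, the adaptor that joins Tal1 to GATA factors, was the only 1 of 8 tested members that edgeR called lower in knockout bodies at day 8. Its level was 1.36, 1.58 and 1.33 TPM in G6 and at 0.882, 2.74 and 2.42 TPM in H8 at day 0, 4 and 8, against 1.92, 10.7 and 23.3 TPM in wild type. In wild type the level was higher at each later day, whereas in G6 it stayed between 1.33 and 1.58 TPM. At day 8 the difference was -3.44 (SE 0.458, 10.8-fold, adjusted p = 0.0208), and at day 4 it was -2.13 (SE 0.452, adjusted p = 0.168). Lmo2 was thus 1 of 8 tested members called lower at day 8, where 4.86% of all genes tested were called lower and 9.87% were called in either direction. With the line as a block 3 members were called lower, Lmo2, Hbb-bh1 and Tal1. That fit called 6.34% of all genes tested lower and 12.5% in either direction. In edgeR the call of Lmo2 ended when 1 knockout body library was left out: G6 of day 4 (adjusted p = 0.0578), H8 of day 4 (0.0565), G6 of day 8 (0.0963) or H8 of day 8 (0.0563), with differences of -3.22 to -3.67. Lmo2 (chr2:103957986-103981878, plus strand) overlaps 4931422A03Rik on the opposite strand without shared exonic bases.

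Tal1, the basic helix-loop-helix factor needed for all blood lineages in the mouse, stood highest in wild type at day 8. Its level was 0.650, 0.515 and 0.211 TPM in G6 and at 0.395, 1.06 and 1.68 TPM in H8 at day 0, 4 and 8, against 0.919, 0.818 and 14.6 TPM in wild type. At day 4 wild type lay between the knockout lines, and at day 8 both lines lay below it. The day 8 difference was -3.77 (SE 0.946, 13.6-fold, adjusted p = 0.0597) and passed with the line as a block (-4.11, SE 0.738, adjusted p = 0.0319). Tal1 is at chr4:115056426-115071755.

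Runx1 and Gata2, both factors of blood progenitors and haemogenic endothelium, had their highest level at day 8 in every line. Runx1 was at 1.66, 1.47 and 1.68 TPM in G6 and at 0.942, 0.539 and 3.22 TPM in H8, against 2.12, 1.39 and 13.4 TPM in wild type. Its day 8 difference of -2.39 (SE 0.618, 5.25-fold) did not pass (adjusted p = 0.0634). Its exons overlap the antisense gene Gm26626 (Runx1 at chr16:92601466-92826149, minus strand), and since the use of strand in counting is not given, reads of the pair cannot be told apart. Gata2 was at 1.24, 0.971 and 2.37 TPM in G6 and at 1.71, 2.22 and 7.54 TPM in H8, against 1.36, 2.26 and 11.3 TPM in wild type. H8 held 66.9% and G6 21.03% of the wild-type Gata2 level at day 8, and the difference of -1.18 (SE 0.654) did not pass (adjusted p = 0.285). Gata2 is at chr6:88193891-88207032 on the plus strand.

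The factors that act last, Gata1 and Klf1, were low throughout. Gata1 was at 0.499, 0.769 and 0.465 TPM in G6 and at 0.941, 0.683 and 1.55 TPM in H8, against 1.14, 0.607 and 1.85 TPM in wild type. Klf1, which binds the CACCC boxes of globin promoters, was at 1.11, 0.623 and 0.635 TPM in G6 and at 0.514, 0.507 and 0.424 TPM in H8, against 0.506, 0.132 and 1.09 TPM in wild type. Neither gene reached 2 TPM in any library, although Hbb-bh1 stood at 462 TPM in wild type at day 8. For Klf1 both knockout lines lay above wild type at day 4 (67 and 61 counts in G6 and H8, against 14 in wild type) and below it at day 8. Its difference was 2.01 at day 4 (SE 0.744, adjusted p = 0.330) and -0.91 at day 8 (SE 0.629, adjusted p = 0.381), and the change of the difference between day 4 and day 8 was -2.92 (SE 0.966, adjusted p = 0.237). The Gata1 difference at day 8 was -1.13 (SE 0.668, adjusted p = 0.313). Gata1 is X-linked (chrX:7959260-7978071, minus strand), and Klf1 lies at chr8:84901928-84905291.

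**Figure D3:**
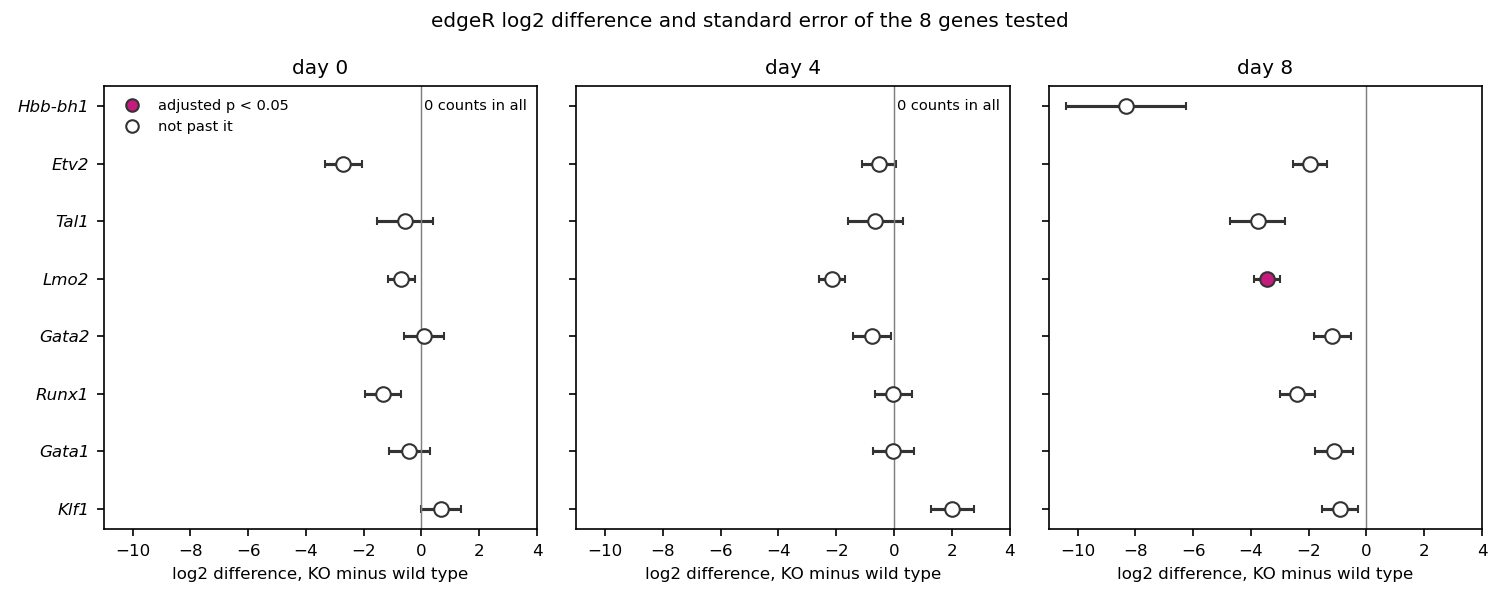
edgeR log2 differences, knockout minus wild type, with standard errors (bars) for the 8 members tested, at day 0, 4 and 8; filled points passed an adjusted p of 0.05. At day 8 all 8 points lie below 0, from -8.32 for Hbb-bh1 to -0.91 for Klf1, and Lmo2 at -3.44 is the only filled one.

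Read across the set at day 8, for all 10 members each knockout line was below wild type, where 44.4% of all genes tested had both lines below wild type in TPM. The median difference of the 8 tested members was -2.18, beside 0.08 over all genes tested. DESeq2 called 4 of the 8 members lower at day 8 (10.6% of all genes tested) and limma-voom 5 (9.85%), and 5 had an unadjusted p under 0.05 in edgeR (29.7%, either direction). Among the factors that reached 5 TPM in wild type at day 8, the knockout level averaged 6.50% of wild type for Tal1, 8.05% for Lmo2, 18.2% for Runx1, 23.6% for Etv2 and 43.9% for Gata2. The embryonic globins averaged 0% to 0.282%.

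At day 4 the members showed few differences. Both knockout lines lay below wild type for 3 of 10 members, where 31.5% of all genes tested did so, and above it for 2, where 46.0% did. No member passed in edgeR, where 0.00807% of all genes tested were called; 2 members, Lmo2 and Klf1, had an unadjusted p under 0.05 (13.5% of all genes), DESeq2 called 1 member, Lmo2 (5.23%), and limma-voom called 0 (0.226%). In stem cells at day 0 both lines lay below wild type for 5 members, where 40.2% of genes tested did so, and above it for 1, where 32.8% did. No member passed there either, where 5.43% of genes tested were called. Only 1 member, Etv2, had an unadjusted p under 0.05 (24.4% of all genes). DESeq2 called 1 member (14.9%) and limma-voom 0 (3.82%). The day 0 shares of members called or with an unadjusted p under 0.05 were thus no higher than those of all genes. The day 0 share with both lines below wild type was higher among the members. The members other than Etv2 had day 0 differences between -1.34 for Runx1 (adjusted p = 0.259) and 0.68 for Klf1 (adjusted p = 0.586), leaving out Hbb-bh1 at 0 counts.

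At day 4 Etv2 lay nearer to its wild-type level than several primitive streak genes did, and within the range of other mesoderm and endothelial genes. Of 20 mesoderm, haemangioblast and member genes with at least 5 TPM in wild type at day 4, Etv2 ranked 4 from the highest in mean percent of wild type and Lmo2 ranked 12. Etv2 held 58.8% of the wild-type level in G6 and 86.4% in H8, and Lmo2 held 14.8% and 25.6%. Kdr, the receptor that marks blood-forming mesoderm, was at 0.485 and 1.11 TPM in lines G6 and H8, and wild type had 32.2 TPM. The primitive streak factor T (brachyury) was at 30.7 and 78.5 TPM against 853 TPM, Mesp1, an early mesoderm factor, at 0 and 1.98 TPM against 87.5 TPM, and Mixl1, a streak homeobox factor, at 0.935 and 9.56 TPM against 256 TPM. All 4 of these genes lay below 10% of wild type in both lines. Genes near Etv2 were Kit, a receptor of blood progenitors, at 95.6% in G6 and 58.3% in H8, the BMP mediator Smad5 at 63.9% and 66.5%, the VEGF receptor Flt1 at 60.1% and 44.8%, and the ligands Bmp4 at 61.2% and 37.3% and Nodal at 29.8% and 68.0%, while Eng (a TGF-beta co-receptor) and Vegfa (the ligand of Kdr) lay above wild type in both. Of the 16 blood mesoderm genes listed, 15 had negative day 4 differences with a median of -3.01. None passed in edgeR; 11 had an unadjusted p under 0.05, DESeq2 called 8 lower and limma-voom 4.

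**Figure D4:**
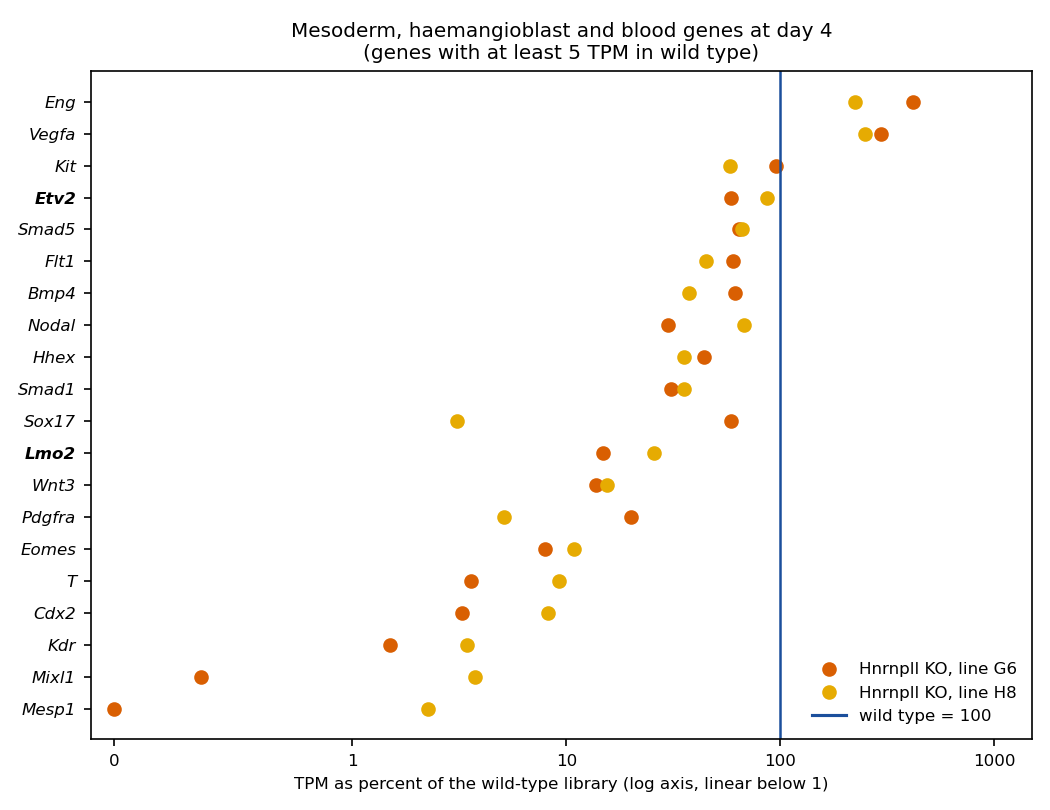
TPM of each knockout line at day 4 as percent of the wild-type library (horizontal, log axis, linear below 1; the line marks 100) for the 20 mesoderm, haemangioblast and member genes with at least 5 TPM in wild type, sorted by their mean; members are in bold. Etv2 lies at 58.8% and 86.4%, among Kit, Smad5 and Flt1, whereas T, Cdx2, Kdr, Mixl1 and Mesp1 lie below 10% in both lines.

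From day 4 to day 8 the members' courses are given for each line. In wild type, from single libraries and with no test, TPM was 17.8-fold higher at day 8 than at day 4 for Tal1, 9.65-fold for Runx1, 4.99-fold for Gata2 and 2.18-fold for Lmo2. The same ratio was 0.410 in G6 and 1.59 in H8 for Tal1, 1.15 and 5.96 for Runx1, 2.44 and 3.40 for Gata2, and 0.840 and 0.886 for Lmo2. No member passed in edgeR between knockout day 8 and day 4, where 0.311% of genes tested were called; 3 members, Etv2, Gata2 and Runx1, had an unadjusted p under 0.05 (13.2% of all genes), DESeq2 called 3 (6.34%) and limma-voom 1 (1.65%). Of these 3 members Etv2 had the difference farthest from 0, at -3.19 (SE 0.531, adjusted p = 0.0851). Whether the knockout difference itself changed between day 4 and day 8 was tested as an interaction. In edgeR no member passed and 0.0% of all genes tested were called; 2 members had an unadjusted p under 0.05 (16.3% of all genes), Klf1 and Runx1 (-2.37, SE 0.931, adjusted p = 0.290). DESeq2 called 0 members, where it called 6.36% of all genes, and limma-voom called 0 members and 0 genes. Tal1 had a change of -3.11 (SE 1.41, adjusted p = 0.344) and Lmo2 one of -1.31 (SE 0.668, adjusted p = 0.396).

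Between the knockout lines, H8 held more member RNA than G6 at day 8. H8 exceeded G6 in TPM for 8 of 10 members, was below it for Klf1 and equal at 0 for Hbb-y, where H8 exceeded G6 for 52.5% of all genes tested. The H8 level was 7.95-fold the G6 level for Tal1, 3.34-fold for Gata1, 3.18-fold for Gata2, 1.91-fold for Runx1, 1.83-fold for Lmo2 and 1.16-fold for Etv2. With 1 library per line and day this difference has no replicate check. At day 4 H8 was above G6 for 5 members (40.9% of all genes tested) and below for 3, and at day 0 above for 2 (41.6% of all genes tested) and below for 5.

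Other genes of the path to red cells, grouped by role, differed unevenly at day 8. Over all genes tested 4.86% were called lower. Of 18 tested haemangioblast and endothelial genes 8 fell and 0 rose in edgeR, with a median difference of -2.53, and DESeq2 called 13 lower and 1 higher. Kdr was at 1.29 and 4.96 TPM in lines G6 and H8, and wild type had 93.0 TPM (difference -4.81, adjusted p = 0.0278), and Kitl, the ligand of the receptor Kit, at 2.99 and 5.35 TPM against 44.3 TPM (-3.36, adjusted p = 0.0180). Vegfa (-1.32, adjusted p = 0.0350) and the angiopoietin receptor Tek (-1.21, adjusted p = 0.0456) also fell. The gene DESeq2 called higher, Pecam1, an adhesion molecule of endothelial and pluripotent cells, was at 49.0 and 41.6 TPM in the knockout lines against 21.1 TPM in wild type (edgeR 1.24, adjusted p = 0.140), and Eng was at 20.0 and 13.3 TPM against 10.9 TPM (0.74, adjusted p = 0.339). Of 16 tested mesoderm genes 5 fell, among them Foxf1 (-5.002, adjusted p = 0.0429), Cdx2 (-3.41, adjusted p = 0.0390) and the BMP mediators Smad1 (-0.98, adjusted p = 0.0471) and Smad5 (-1.57, adjusted p = 0.0307). The 1 mesoderm gene called higher, Cdx4, named after its values were seen, was at 0.09 and 0.22 TPM in the knockout lines and at 0 counts in wild type.

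Red cell genes beyond the globins showed no common direction. Of 17 tested cofactors and repressors 4 fell and 0 rose in edgeR, with a median of -0.68. The 4 included Sox6, a repressor of embryonic globin genes in the mouse (-3.17, adjusted p = 0.0283), and Cbfa2t3, a corepressor of the Tal1 complex (-2.37, adjusted p = 0.0314). The others were Tcf12, an E-protein partner of Tal1 (-1.69, adjusted p = 0.0259), and Stat5b, a mediator of erythropoietin signals (-1.05, adjusted p = 0.0348). DESeq2 called 5 of the 17 lower and 2 higher, and limma-voom 6 lower and 0 higher. The 2 higher were Myb (edgeR 1.34, adjusted p = 0.118) and E2f2 (edgeR 1.29, adjusted p = 0.119). Of 9 haem synthesis genes 1 fell, Alas2, the erythroid form of the first enzyme of the pathway, at 0.33 and 0.98 TPM in the knockout lines against 5.80 TPM in wild type (-3.35, adjusted p = 0.0225), while the median of the 9 was -0.07. Of 24 tested genes of the red cell membrane, iron and maturation group 1 fell, Gypc, a membrane glycophorin (-3.45, adjusted p = 0.0234), and 2 rose, Rhd (2.14, adjusted p = 0.0385) and the iron reductase gene Steap3 (2.31, adjusted p = 0.0248), with a median of -0.54. Rhag, a membrane protein of the Rh complex, had 0 counts in both knockout lines, at least 89.3-fold lower than the 0.70 TPM of wild type (22.3-fold if counts come in steps of 4).

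**Figure D5:**
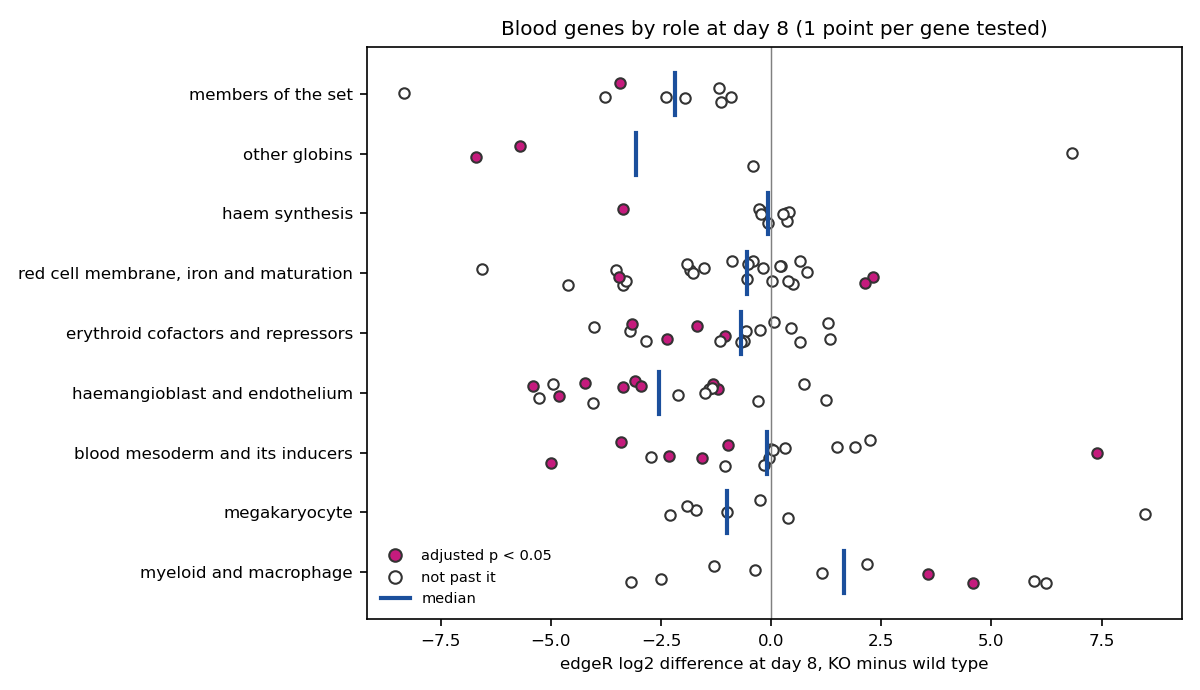
edgeR log2 difference at day 8, knockout minus wild type, 1 point per gene tested, in rows by role; filled points passed an adjusted p of 0.05 and the bar is the row's median. Medians run from -3.06 for the other globins and -2.53 for haemangioblast and endothelial genes to -0.07 for haem synthesis and 1.66 for myeloid genes; Hbq1a, Cdx4, Ppbp, Ptprc and Cx3cr1 have 0 counts in wild type, so their values are not sizes of change.

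These calls, like those of the markers that follow, rest on all knockout libraries. Of the 42 list and marker genes called at day 8, 0 stayed called when G6 of day 4, H8 of day 4 or G6 of day 8 was left out, and 19 when H8 of day 8 was; over all genes the calls numbered 0, 0, 2 and 560 in these fits. Among the genes named, the calls of Hba-a1, Smad1 and Tek ended with total count scaling, those of Smad1 and Tek with no filter, those of Cdx4, Rhd and Tek with log2(TPM + 1), those of Alas2, Cbfa2t3, Cdx4 and Tek with log2(TPM + 0.1), that of Cdx4 with limma-voom, and that of Foxf1 without either day 0 knockout library.

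Markers of other cell types moved with the day 8 comparison too, and their part in the results for the globins and factors was not tested. The summed level of 7 pluripotency markers was 3203 and 3304 TPM in lines G6 and H8 at day 8, and wild type had 511 TPM, and 6 of 7 rose, with Pou5f1 at a difference of 2.68 (adjusted p = 0.0142). That of 9 visceral and yolk sac endoderm markers was 66.3 and 66.0 TPM against 667 TPM, and 2 of 9 fell, Ttr and Rbp4. That of 7 cardiomyocyte markers was 7.56 and 11.1 TPM against 258 TPM, and 5 of 7 fell. That of 7 endothelial markers was 65.6 and 57.7 TPM against 150 TPM, and 4 of 6 tested fell. Pecam1, which was above wild type as given before, made up most of both knockout sums, while Emcn had 0 counts in both knockout lines, at least 734-fold lower than in wild type (183-fold if counts come in steps of 4). That of 7 fibroblast markers was 13.0 and 44.6 TPM against 774 TPM, with 2 of 7 lower, and Lum at 0 counts in G6. That of 6 neural markers was 29.9 and 44.7 TPM against 71.7 TPM, with 1 of 6 lower. By sign the neural markers were split, with 3 negative and 3 positive differences and a median of 0.12. DESeq2 called 1 of them lower (Nes) and 1 higher (Sox1). The summed level of 6 macrophage markers was 32.3 and 35.1 TPM against 11.8 TPM. Of 4 tested, edgeR called 0 and 1 had an unadjusted p under 0.05. DESeq2 called 1 (Cd68) and limma-voom 0.

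Other genes shared the pattern of single members over the 9 libraries, measured as the cosine similarity of log2(TPM + 1) among 12366 genes that reached 5 TPM. Nearest to Hbb-bh1 were Tdo2 (0.998), Shh (0.997), Trim55 (0.997), Kcnk16 (0.996) and Asb12 (0.996); Tdo2, for example, was at 0 and 1.496 TPM in lines G6 and H8 at day 8, and wild type had 29.1 TPM. Among the nearest to Etv2 were Magel2 (0.991), Ms4a4d (0.989), Fgf5 (0.987) and Piezo2 (0.987). Fgf5, a marker of primed epiblast, was at 41.1 and 57.3 TPM at day 4 in the knockout lines against 126 TPM in wild type. Nearest to Gata1 were Plagl1 (0.986), Glrb (0.985), Npr2 (0.984), Mllt3 (0.984) and Letmd1 (0.983). With 9 libraries that share 3 lines and 3 days, such likeness is a description of these libraries only.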

How the data were processed

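The members and gene lists were chosen with earlier results of these data known. Genes named were all members, up to 4 called genes of each list at day 8 by mean TPM (2 where none was called), and the 5 genes most like Hbb-bh1, Gata1 and Etv2, of which 1 is not reported here.

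The authors deposited whole-number counts per gene with no scaling and, separately, TPM per gene for each library. HISAT2 2.0.5, StringTie 1.3.3b and mm10 are named in the submitters' processing notes; options, annotation and whether counting used strand are not given in the sources used here. Each library's 259 entries without a gene name (0.0242% to 0.0398% of counts) were left out. Coordinates came from GENCODE M21, which all 49326 identifiers matched, and promoters from RefSeq (windows for 8 of 10 members).

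Genes of which 2 or more libraries reached 0.0791 CPM (10 counts at the median depth) were tested with edgeR 4.0.16 (R 4.3.3, TMM, two-sided quasi-likelihood F test; limma 3.58.1 for voom) in a model with 1 mean for each group of genotype and day (3 residual degrees of freedom, prior 3.12, common biological coefficient of variation 0.348). Alternatives were DESeq2 1.42.0, limma-voom, log2(TPM + 1), log2(TPM + 0.1), other scalings, no filter, a replicate block and left-out libraries. In the replicate block each knockout line is a term: samples with the same replicate label come from the same line, and H8 minus G6 differences correlated between days over 15063 genes (0.188 for day 0 and 4, 0.159 for 0 and 8, 0.417 for 4 and 8). On simulated data for the day 8 comparison, with 100 genes changed 4-fold and 100 changed 16-fold among 23996, 30% and 98% were recovered with 7 false calls. How far these shares hold for the members was not tested. In the main fit at day 8 Lmo2 (10.8-fold) passed, and Tal1 (13.6-fold) and Hbb-bh1 did not.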

Additional observations from a re-analysis of the deposited data

How the results depend on the processing

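The member counts called moved with the method, mostly at day 8, and so did the shares of all genes called. At day 8 the main fit called 9.87% of all genes tested, DESeq2 21.7% and limma-voom 15.2%. The share was 12.3% with log2(TPM + 1), 10.8% with log2(TPM + 0.1) and 6.09% with no filter. It was 12.5% with the replicate block and 17.6% without both day 0 knockout libraries. In day 0 stem cells DESeq2 called 1 member and leaving out single knockout libraries 0 to 1 (1 without G6 of day 0). At day 4 DESeq2 called 1. At day 8 DESeq2 called 4, limma-voom 5, log2(TPM + 1) 5, log2(TPM + 0.1) 2, no filter 3, the replicate block 3, the fit without both day 0 knockout libraries 2, and left-out libraries 0 to 2: 0 without G6 or H8 of day 4 or without G6 of day 8, and 2 without either day 0 library. Between knockout day 4 and day 8 DESeq2 called 3, limma-voom 1, log2(TPM + 1) 1, the fit without both day 0 libraries 1, and left-out libraries 0 to 1 (1 without either day 0 library). The interaction had 1 called member, Hbb-bh1, with log2(TPM + 1). For these counts the cause was not tested, except that the fit without the filter tests all 10 members. Etv2 passed between knockout day 0 and day 4 in all 14 alternatives. The replicate block changed no member's call at day 8 other than those of Hbb-bh1 and Tal1, and all 42 list and marker genes called there stayed called; of these 39 stayed called with total count scaling, 40 with no filter, 40 with limma-voom, 38 with log2(TPM + 1), 36 with log2(TPM + 0.1) and 42 with DESeq2.

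Of 658 values under alternatives, 30 reversed, none of them a value of the differences that edgeR called. At day 4 Gata1 was 0.0442 with total count scaling, 0.10 with log2(TPM + 1), 0.22 with log2(TPM + 0.1) and 0.0341 with the replicate block, and Runx1 was 0.0516 with total count scaling. For knockout day 4 minus day 0, log2(TPM + 1) and log2(TPM + 0.1) gave 0.0168 and 0.0634 for Gata1, 0.0315 and 0.0167 for Gata2, and -0.22 and -0.43 for Runx1, and limma-voom gave -0.083 for Runx1. For knockout day 8 minus day 4 Tal1 was -0.18 with log2(TPM + 0.1). Leaving out single libraries gave ranges that crossed 0: -0.26 to 0.33 for Gata2 at day 0, -0.13 to 0.0826 for Gata1 and -0.86 to 0.51 for Runx1 at day 4. For knockout day 4 minus day 0 they were -0.53 to 0.40 for Gata1, -1.05 to 0.0203 for Gata2, -0.94 to 0.0405 for Klf1, -0.29 to 0.80 for Tal1 and -0.76 to 0.61 for Runx1. For knockout day 8 minus day 4 they were -0.40 to 0.88 for Gata1, -0.41 to 0.19 for Klf1, -1.34 to 1.19 for Tal1 and -0.59 to 0.18 for Lmo2, and for the interaction -1.13 to 0.21 for Gata2.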

Other observations

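Genes of other blood lineages differed by list at day 8, with 10 megakaryocyte genes summing to 7.30 and 9.33 TPM in lines G6 and H8 and to 18.3 TPM in wild type, and 12 myeloid genes to 117 and 98.7 TPM and to 20.7 TPM. Of 7 tested megakaryocyte genes 0 were called by edgeR, 3 had an unadjusted p under 0.05, DESeq2 called 3 (Itga2b and Itgb3 lower, Ppbp higher) and limma-voom called Itga2b. Itga2b, the integrin that marks the earliest blood cells as well as platelets, was at 2.07 and 2.70 TPM in lines G6 and H8, and wild type had 7.38 TPM (log2 difference -1.71, SE 0.503, adjusted p = 0.0840). Itgb3, its integrin partner, was at 3.44 and 4.41 TPM against 8.58 TPM (-1.01, SE 0.363, adjusted p = 0.129). Of 10 tested myeloid genes 2 were called higher in knockout bodies and 0 lower, where 5.01% of all genes tested were called higher. By sign the list was mixed, with 6 positive and 4 negative differences. The negative ones were those of Lyz2, Mpo, Fcgr3 and Csf1r, none past the test. Most of both knockout sums of this list came from Laptm5. Laptm5, a lysosomal protein of blood cells, was at 81.0 and 60.6 TPM against 5.71 TPM (3.56, SE 0.585, adjusted p = 0.0259), and it was also at 108 and 202 TPM in knockout stem cells at day 0, above wild type. Spi1, the myeloid factor PU.1, was at 0.69 and 0.72 TPM against 0.03 TPM (4.59, SE 0.934, adjusted p = 0.0377). The call of Spi1 also ended with limma-voom and with log2(TPM + 1) and log2(TPM + 0.1). Both calls ended when any 1 knockout library of day 4 or day 8 was left out.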
